A study of Mus musculus with 6 samples.

Results

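The early secretory pathway was examined in primary pancreatic stellate cells (PSCs) of mice, fibroblast-like cells that reside in the pancreas, through 40 genes that encode the coats, cargo receptors and membrane channels between the endoplasmic reticulum (ER) and the Golgi. The members were a given list of gene names, and all 40 were found among the 49671 genes of the count table and among the 15197 genes with enough counts to be tested. PSCs of WT C57BL/6J mice (genotype C57BL6/J WT in the labels) were cultured for 120 h in DMEM/Ham F12 with FCS, either at an extracellular pH (pHe) of 6.6 or at pHe7.4, with the pH set by the content of sodium bicarbonate. Polyadenylated RNA was sequenced from 6 libraries, 3 at each pHe, which the labels name as biological replicates A to C. The cells were selected by adherence to plastic and are bulk cultures, so that fewer cells of a type and less RNA per cell cannot be told apart. The amount of bicarbonate differed along with the pH, and the effects of bicarbonate and of pH cannot be told apart.

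Proteins that enter the ER pass through the Sec61 translocon, leave the ER at exit sites in COPII-coated carriers and are sorted in the intermediate compartment, from where COPI-coated vesicles bring receptors and escaped ER residents back. The p24 (TMED) proteins and the KDEL receptors travel in both directions between these compartments, the p24 proteins as cargo receptors and coat adaptors, and the KDEL receptors as the retrieval receptors for soluble ER proteins. Fibroblasts that build matrix depend on this route, since procollagen, which is too long for an ordinary COPII vesicle, is loaded with the help of Mia3 (TANGO1).

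Libraries held 28904761 to 38331877 counts, and levels are given as CPM, counts divided by the size of the library after scaling by the trimmed mean of M values (TMM). Markers of PSCs and fibroblasts were abundant in every library, with a summed level of 37230 to 40100 CPM at pHe6.6 and 38480 to 48580 CPM at pHe7.4 over 10 genes. Of these 10, 5 were higher and 1 was lower at pHe6.6 (log2 fold changes of 1.94 for Lum, 1.62 for Dcn, 1.06 for Pdgfra and -0.97 for Col1a1), so that markers of the cultured cell type moved in both directions. Markers of other cells also differed with pHe. The 10 mesothelial markers summed to 154 to 507 CPM at pHe6.6, against 1301 to 1396 CPM at pHe7.4, and 7 of the 10 passed the test, all lower at pHe6.6. These were Upk3b, Lrrn4, Wt1, Gpm6a and the keratins Krt8, Krt18 and Krt19, while Msln (edgeR adjusted p = 0.338), Nkain4 and Upk1b did not pass. Krt18 and Krt8 had the highest means at pHe7.4 (413 and 374 CPM). The paper stains CK19, the product of Krt19, as a ductal and tumor cell marker, so the list is not of mesothelial cells alone. The 6 ductal markers summed to 80.5 to 232 CPM at pHe6.6, against 562 to 705 CPM at pHe7.4, with 4 of the 6 lower, and the 5 endothelial markers to 14.8 to 27.5 CPM at pHe6.6, against 40.3 to 50.8 CPM at pHe7.4, with 4 lower and 1 higher. Sums overlapped between the groups for the 9 macrophage markers (535 to 1010 CPM at pHe6.6 and 496 to 763 CPM at pHe7.4, 2 higher) and the 11 acinar markers (13.9 to 29.9 CPM at pHe6.6 and 4.35 to 57.5 CPM at pHe7.4, 1 higher, Amy2b at 0 in all libraries). The 4 B cell markers reached 8.91 CPM in pHe6.6 replicate C and were at most 0.177 CPM elsewhere. The part of these other cell types in the results below was not tested. Beside the counts above, 26.4% of all genes tested were higher and 25.9% were lower at pHe6.6.

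Of the 40 members, 7 were higher and 13 were lower at pHe6.6 than at pHe7.4 by edgeR's quasi-likelihood test, with an adjusted p under 0.05, and 20 did not pass. The members called were 50% of the list, beside 52.3% of all genes tested (26.4% higher and 25.9% lower), so that the share called was near the background and is no result about these genes. Of the 8425 genes with a mean level within the range of the members (13.9 to 557 CPM), 57.8% were called. CPM did not overlap between the groups for 25 of the 40 members, beside 63.2% of all genes. Without pHe6.6 replicate C the count of lower members was 7 in place of 13.

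The changes were small. The median log2 fold change (pHe6.6 over pHe7.4) was -0.077 over the members and -0.011 over all genes, and the median size of the log2 fold change was 0.21 over the members, beside 0.39 over all genes and 0.30 over the genes within their range of levels. Tmed10 was the only member with an adjusted p under 0.05 and a log2 fold change over 0.58 in size, 1 of 40 beside 29.8% of all genes and 23.6% of those within the range of levels. Kdelr2 lay just inside that limit with a log2 fold change of -0.56, and passed it in fits with upper-quartile factors (-0.60), without pHe6.6 replicate B (-0.60) or without pHe7.4 replicate C (-0.61). Together, the 40 genes took 6415 to 6507 CPM at pHe6.6, against 6823 to 7170 CPM at pHe7.4, a ratio of the means of 0.932, and the groups did not overlap.

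**Figure D1:**
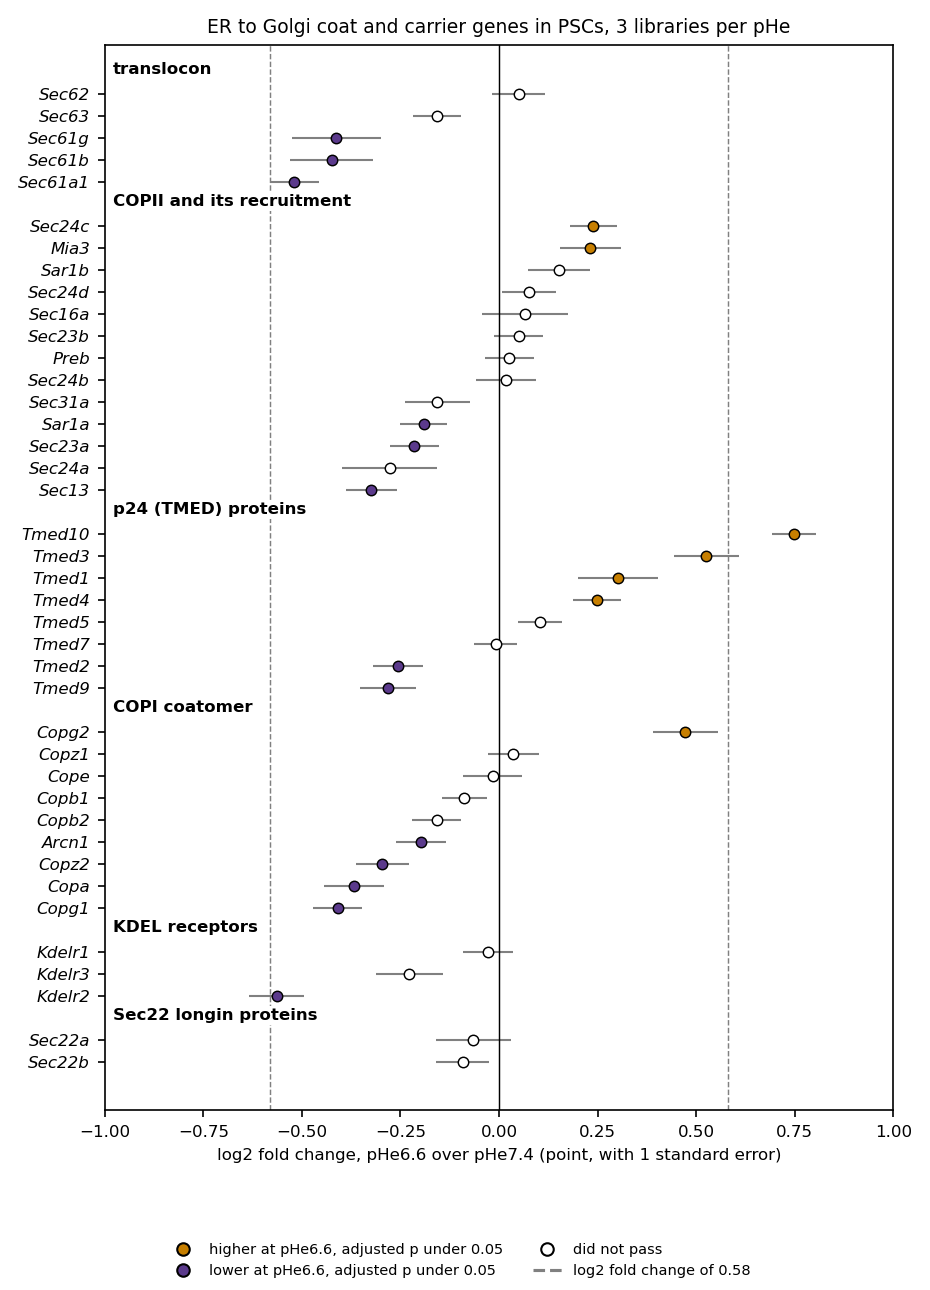
Log2 fold change (pHe6.6 over pHe7.4) of each of the 40 members, with bars of 1 standard error, grouped by role; filled points passed edgeR's test (orange higher and purple lower at pHe6.6), open points did not, and dashed lines mark 0.58 in size. Tmed10, at 0.75, is the only called point beyond the lines, and the 3 called translocon genes and the 1 called KDEL receptor gene lie on the lower side.

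The p24 family held the member with the largest rise. Of its 8 members, Tmed1, Tmed3, Tmed4 and Tmed10 rose at pHe6.6, Tmed2 and Tmed9 fell, and Tmed5 and Tmed7 did not pass, with a median log2 fold change of 0.18. The share called was 75%, beside 52.3% of all genes. Tmed10 (ENSMUSG00000021248, chr12:85340614-85374847 on the minus strand of GRCm38), the delta p24 protein that pairs with Tmed2 in the p24 complex, had 293, 283 and 290.3 CPM in the pHe6.6 libraries, against 175, 170.0 and 171 CPM in the pHe7.4 libraries. All 3 pHe6.6 libraries stood far above all 3 pHe7.4 libraries, and neither group spread by more than a few percent. The fold was 1.68 (log2 fold change 0.75, SE 0.057, edgeR adjusted p = 5.48e-05), and the call held in all 14 alternatives, in which the log2 fold change was 0.72 to 0.76.

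Tmed3, a gamma p24 protein, had 216, 186 and 185 CPM at pHe6.6, against 135, 144 and 129 CPM at pHe7.4. The groups did not overlap, with replicate A the highest of the pHe6.6 libraries, and the log2 fold change was 0.53 (SE 0.082, edgeR adjusted p = 0.00144). Tmed4, an alpha p24 protein, had a log2 fold change of 0.25 (77.2 to 81.0 CPM at pHe6.6, against 63.5 to 70.2 CPM at pHe7.4, edgeR adjusted p = 0.0114). Tmed1, a gamma p24 protein, was at 32.0 to 37.7 CPM at pHe6.6, against 25.6 to 31.3 CPM at pHe7.4, a log2 fold change of 0.30 (edgeR adjusted p = 0.0377). The call on Tmed1 was lost without pHe6.6 replicate A or B or pHe7.4 replicate A or C, with adjusted p of 0.0521 to 0.126, and with upper-quartile factors (0.0652). Exons of Tmed1 also overlap those of Dnm2 on the other strand by 207 bases, and Dnm2 held 544% as many counts as Tmed1 over the 6 libraries. The strand setting of the counting is not given in the sources used here. Whether this overlap added reads to the value of Tmed1, took reads from it or did neither cannot be told.

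Tmed2 and Tmed9 were the p24 genes that fell. Tmed2, the beta p24 protein, had 78.7, 84.0 and 75.5 CPM at pHe6.6, against 95.4, 97.8 and 91.5 CPM at pHe7.4. Every pHe6.6 library lay below every pHe7.4 library, and Tmed2 fell by 0.26 on the log2 scale (SE 0.063, edgeR adjusted p = 0.0111). Tmed9, an alpha p24 protein, had 215, 211 and 199.6 CPM at pHe6.6, against 254, 269.5 and 237 CPM at pHe7.4, and fell by 0.28 (SE 0.071, edgeR adjusted p = 0.0122). Both calls were lost without pHe6.6 replicate C, where the adjusted p was 0.0582 for Tmed2 and 0.0575 for Tmed9. Tmed5, a gamma protein at 124 to 133 CPM at pHe6.6 and 118 to 119 CPM at pHe7.4, did not overlap between the groups but did not pass (adjusted p = 0.155), and Tmed7, the remaining gamma protein, was at 168 to 171 CPM at pHe6.6 and 169 to 173 CPM at pHe7.4. Over the 8 genes the summed level was 1154 to 1223 CPM at pHe6.6, against 1006 to 1072 CPM at pHe7.4. Tmed10 has a processed pseudogene on chromosome 13, Tmed10-ps, which was not analysed here and with which it may share reads.

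**Figure D2:**
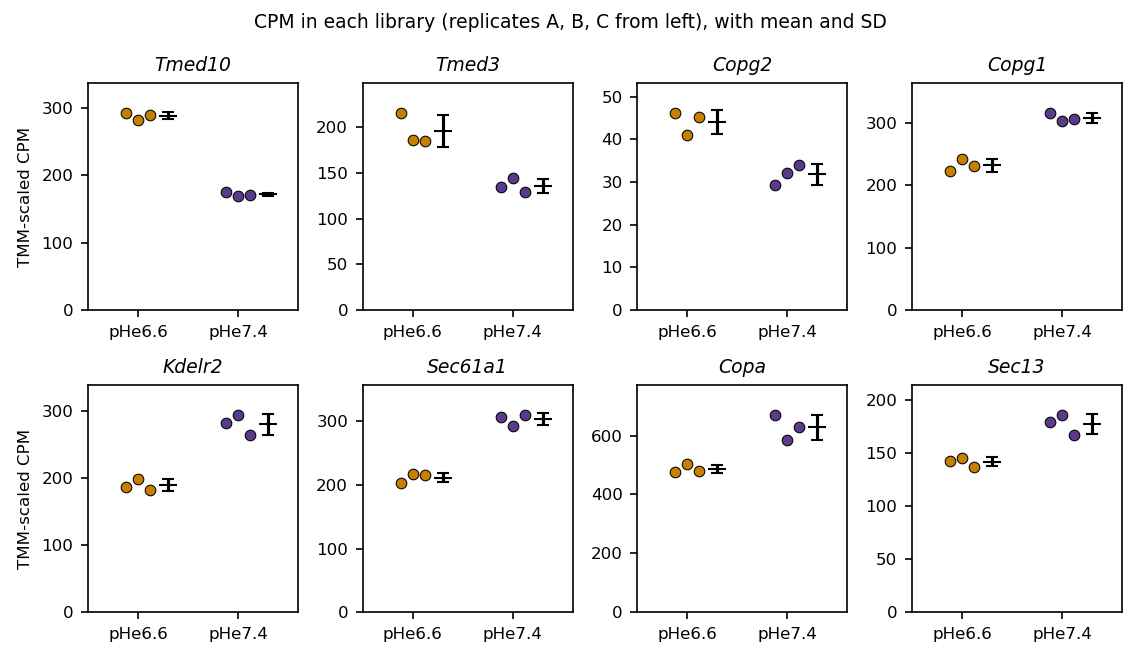
TMM-scaled CPM of 8 members in each library, replicates A, B and C from left to right, orange for pHe6.6 and purple for pHe7.4, with the mean and SD of the 3 libraries; each axis starts at 0. Tmed10, Tmed3 and Copg2 lie higher at pHe6.6 and Copg1, Kdelr2, Sec61a1, Copa and Sec13 lower, with no overlap between the groups in any of the 8. The 8 are called members picked for display, so that this count is no result. CPM did not overlap for 25 of all 40 members and for 63.2% of all genes.

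Among the 9 subunits of the COPI coatomer, which coats vesicles that return to the ER, 4 were lower (Copa, Copg1, Copz2 and Arcn1), 1 was higher (Copg2) and 4 did not pass, with a median log2 fold change of -0.16. The share called was 55.6%, near the 52.3% of all genes. Their summed level was 1868 to 1907 CPM at pHe6.6, against 2126 to 2272 CPM at pHe7.4, without overlap. Copg1 and Copg2 encode alternative forms of the gamma subunit, which binds the p24 tails and the Arf GTPase-activating protein Arfgap2. Copg1 (ENSMUSG00000030058, chr6:87887814-87913595, plus strand) had 222, 242 and 232 CPM at pHe6.6, against 317, 302 and 306 CPM at pHe7.4. All pHe6.6 libraries were below all pHe7.4 libraries, and the log2 fold change was -0.41 (SE 0.063, edgeR adjusted p = 0.0013). Copg2 (ENSMUSG00000025607, chr6:30747554-30896794, minus strand), the less abundant form, had 46.3, 41.0 and 45.2 CPM at pHe6.6, against 29.3, 32.1 and 34.1 CPM at pHe7.4. Here all pHe6.6 libraries were above all pHe7.4 libraries, and the log2 fold change was 0.47 (SE 0.082, edgeR adjusted p = 0.00238). Exons of Copg2 overlap those of Mest on the other strand by 912 bases, and Mest held 17.8% as many counts as Copg2 over the 6 libraries.

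Copa, the alpha subunit, which recognises dilysine retrieval signals, had the highest CPM of the members, though not the highest level per length. It had 477, 502 and 481 CPM at pHe6.6, against 670.0, 584 and 630.4 CPM at pHe7.4. The groups did not overlap, and Copa fell by 0.37 on the log2 scale (SE 0.076, edgeR adjusted p = 0.00524). Its exons share 195 bases with Ncstn on the other strand, and Ncstn held 52.5% as many counts as Copa. Copz2, the less abundant zeta subunit, had 34.5, 37.3 and 33.9 CPM at pHe6.6, against 44.4, 44.0 and 41.5 CPM at pHe7.4 (log2 fold change -0.30, SE 0.067, edgeR adjusted p = 0.00788). Copz1, the major zeta subunit, had 127, 113 and 126 CPM at pHe6.6 and 119, 120.1 and 118 CPM at pHe7.4, and did not pass (adjusted p = 0.663). Arcn1, the delta subunit, was at 271 to 275 CPM at pHe6.6, against 297 to 328 CPM at pHe7.4 (log2 fold change -0.20, edgeR adjusted p = 0.0316), and its call was lost in 7 of 14 alternatives, among them those without pHe6.6 replicate A, B or C or pHe7.4 replicate A or C (adjusted p 0.0549 to 0.106). The beta and beta' subunits Copb1 (adjusted p = 0.223) and Copb2 (adjusted p = 0.0665) had lower CPM in every pHe6.6 library than in any pHe7.4 library without passing, and Cope, the epsilon subunit, overlapped between the groups.

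COPII and the genes that recruit it moved in both directions. Of 13 genes, Sec24c and Mia3 were higher, Sec13, Sec23a and Sar1a were lower and 8 did not pass, with a median log2 fold change of 0.026, and the summed levels overlapped (2154 to 2159 CPM at pHe6.6 and 2104 to 2332 CPM at pHe7.4). The share called was 38.5%, beside 52.3% of all genes. Without pHe7.4 replicate B the count of lower genes was 5, and without pHe6.6 replicate A or C or pHe7.4 replicate A it was 1, while the count of higher genes was 1 without pHe6.6 replicate A or C or pHe7.4 replicate C. Sec13, a subunit of the outer coat that also serves in the nuclear pore, had 142, 146 and 137 CPM at pHe6.6, against 179.5, 186 and 167 CPM at pHe7.4. The groups did not overlap and Sec13 fell by 0.32 on the log2 scale (SE 0.065, edgeR adjusted p = 0.00447). Sec31a, its partner in the outer coat, was at 366 to 379 CPM at pHe6.6 and 376 to 454 CPM at pHe7.4, and passed only in the fits without pHe7.4 replicate B (log2 fold change -0.23, edgeR adjusted p = 0.0278) or with sample weights in limma-voom (-0.20, adjusted p = 0.0343).

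The inner coat is made of Sec23, which activates the Sar1 GTPase, and Sec24, which binds cargo. Sec23a had 161, 173 and 173 CPM at pHe6.6, against 204, 192 and 193 CPM at pHe7.4, and fell by 0.21 on the log2 scale (SE 0.063, edgeR adjusted p = 0.0219). The call was lost without pHe6.6 replicate A or C or pHe7.4 replicate A (adjusted p 0.0597 to 0.0894) and without a filter on low counts (0.0639). Sec23b, the other form, had 91.5, 95.6 and 95.0 CPM at pHe6.6 and 96.5, 88.3 and 87.8 CPM at pHe7.4, and the groups overlapped. Sec24c had 201, 189 and 205 CPM at pHe6.6, against 169, 168 and 167 CPM at pHe7.4. It was the only Sec24 form to pass, with a log2 fold change of 0.24 (SE 0.059, edgeR adjusted p = 0.0113). Sec24a had 42.9, 48.8 and 48.3 CPM at pHe6.6 and 64.8, 46.9 and 57.9 CPM at pHe7.4, where replicate B lay within the pHe6.6 range, and its log2 fold change was -0.28 (adjusted p = 0.0875), or -0.40 without pHe7.4 replicate B (adjusted p = 0.0115) and -0.31 with sample weights in limma-voom (0.0231). Sec24b had 92.1, 97.7 and 97.2 CPM at pHe6.6 and 101, 85.1 and 97.8 CPM at pHe7.4, and Sec24d, the most abundant form by CPM, was at 293 to 294 CPM at pHe6.6 and 258 to 295 CPM at pHe7.4. Sec24c was set against Sec24d alone, as a ratio below, and its difference from Sec24a and Sec24b was not tested.

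Sar1a, the major Sar1 GTPase, had 258, 254 and 248 CPM at pHe6.6, against 296, 294 and 279 CPM at pHe7.4. The groups did not overlap, and Sar1a fell by 0.19 on the log2 scale (SE 0.060, edgeR adjusted p = 0.0293). The call was lost without pHe6.6 replicate A, B or C or pHe7.4 replicate A (adjusted p 0.0543 to 0.116) and without a filter on low counts (0.101). Sar1b, the form mutated in chylomicron retention disease in humans, had 53.8, 49.1 and 50.2 CPM at pHe6.6 and 44.3, 50.3 and 43.1 CPM at pHe7.4, and did not pass (adjusted p = 0.138, and 0.033 without pHe7.4 replicate B, where the log2 fold change was 0.22, or 0.0345 with sample weights). Mia3, the procollagen receptor at exit sites, was at 187 to 201 CPM at pHe6.6, against 151 to 177 CPM at pHe7.4 (log2 fold change 0.23, edgeR adjusted p = 0.0363), a call lost without pHe6.6 replicate A or C or pHe7.4 replicate B or C (adjusted p 0.0608 to 0.096). Preb, the exchange factor that loads Sar1 at the ER membrane, and Sec16a, the scaffold of exit sites, overlapped between the groups, with log2 fold changes of 0.026 and 0.065.

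Of 5 translocon genes, 3 were lower and none was higher (60% called, beside 52.3% of all genes), with a median log2 fold change of -0.41 and a summed level of 704 to 718 CPM at pHe6.6, against 826 to 868 CPM at pHe7.4. The 3 lower genes encode the 3 subunits of the Sec61 channel, the alpha subunit as Sec61a1. Sec61a2, the other form of the alpha subunit, is outside the members and was named after its values were seen. It was higher at pHe6.6 (log2 fold change 0.30, edgeR adjusted p = 0.0486), close to the threshold of 0.05. Sec61a1 (ENSMUSG00000030082, chr6:88503579-88518905, minus strand), the pore, had 203, 216 and 214 CPM at pHe6.6, against 306, 293 and 309 CPM at pHe7.4. The groups lay well apart, and Sec61a1 fell by 0.52 on the log2 scale (SE 0.062, edgeR adjusted p = 0.000399). Over the 14 alternatives the log2 fold change was -0.55 to -0.49, with an adjusted p under 0.05 in all. Sec61b had 55.8, 56.2 and 54.0 CPM at pHe6.6, against 69.8, 87.2 and 65.7 CPM at pHe7.4 (log2 fold change -0.42, SE 0.11, edgeR adjusted p = 0.0116). Sec61g had 34.3, 32.6 and 32.5 CPM at pHe6.6, against 40.8, 52.4 and 39.2 CPM at pHe7.4 (log2 fold change -0.41, SE 0.11, edgeR adjusted p = 0.0171), a call lost without pHe6.6 replicate C (adjusted p = 0.0595). In both small subunits pHe7.4 replicate B was the highest library. Sec62 and Sec63, which help proteins enter after their synthesis, did not pass. Sec63 was lower in CPM in every pHe6.6 library (193 to 205 CPM, against 216 to 230.1 CPM at pHe7.4, adjusted p = 0.0617), and Sec62 overlapped.

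Of the 3 KDEL receptors, 1 was called (33.3%, beside 52.3% of all genes). Kdelr2 (ENSMUSG00000079111, chr5:143403838-143421901, plus strand) had the largest fall of all members. It had 188, 199 and 182 CPM at pHe6.6, against 282, 294 and 264 CPM at pHe7.4. Each pHe6.6 library was below each pHe7.4 library by more than the range within either group, and the level at pHe6.6 was 0.676 of that at pHe7.4 (log2 fold change -0.56, SE 0.070, edgeR adjusted p = 0.00048). Kdelr1 had 159.8, 148 and 154 CPM at pHe6.6 and 161, 161 and 148 CPM at pHe7.4, and the groups overlapped (log2 fold change -0.028, SE 0.064). Kdelr3 had 82.7, 86.6 and 78.9 CPM at pHe6.6 and 108, 94.5 and 88.0 CPM at pHe7.4, which did not overlap, but it missed the threshold (log2 fold change -0.23, SE 0.086, adjusted p = 0.0557) and passed it without pHe7.4 replicate C (-0.29, edgeR adjusted p = 0.0329), with upper-quartile factors (0.0334) or with sample weights (0.0419). The summed level of the 3 receptors was 414 to 434 CPM at pHe6.6, against 500.0 to 551 CPM at pHe7.4. The longin proteins Sec22b, a SNARE of ER to Golgi traffic, and Sec22a, its rarer relative, did not pass: Sec22b had 105, 102 and 100.2 CPM at pHe6.6 and 109, 116 and 102 CPM at pHe7.4, and Sec22a had 14.4, 13.5 and 12.9 CPM at pHe6.6 and 13.3, 15.4 and 14.0 CPM at pHe7.4.

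Where the coats use alternative forms of a subunit, the balance between the forms was compared within each library, which removes the scaling between libraries. In 10 pairs the ratio of counts was tested by a two-sided exact permutation test over the 6 libraries, for which 0.1 is the smallest p that 3 against 3 libraries can give, so that no pair could reach 0.05. The ratio did not overlap between the groups in 8 of the 10 pairs, all with an exact p of 0.1 (0.125 adjusted over the pairs). CPM of single genes did not overlap for 63.2% of all genes, and the share over ratios of other gene pairs was not computed. The count of pairs alone is therefore no result about them. The 3 KDEL receptor ratios share genes, and the pairs are not independent of the fold changes above.

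The gamma-COP forms had the largest difference. Counts of Copg2 per count of Copg1 were 0.208, 0.169 and 0.195 at pHe6.6, against 0.0926, 0.106 and 0.112 at pHe7.4. The difference of the mean log2 ratios was 0.88 (mean -2.40 ± 0.15 at pHe6.6 and -3.28 ± 0.14 at pHe7.4, SD, n = 3 each, exact p = 0.1), and it was 0.81 to 0.97 when each library was left out in turn. Kdelr2 per count of Kdelr1 was 1.17, 1.34 and 1.18 at pHe6.6, against 1.75, 1.83 and 1.78 at pHe7.4, a difference of -0.54 in log2 ratio. Sar1a per count of Sar1b was 4.80, 5.17 and 4.94 at pHe6.6, against 6.67, 5.84 and 6.46 at pHe7.4, a difference of -0.35. Smaller differences of the log2 ratio were seen for Kdelr3 to Kdelr2 (0.34), Copz2 to Copz1 (-0.33), Sec24a to Sec24b (-0.29), Sec23a to Sec23b (-0.27) and Kdelr3 to Kdelr1 (-0.20). For Kdelr3 to Kdelr1 the groups nearly touched, with a ratio of 0.585 in pHe6.6 replicate B and 0.588 in pHe7.4 replicate B. The ratio overlapped for Sec24d to Sec24c (-0.16, exact p = 0.2) and for Sec22a to Sec22b (0.026, exact p = 0.8).

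**Figure D3:**
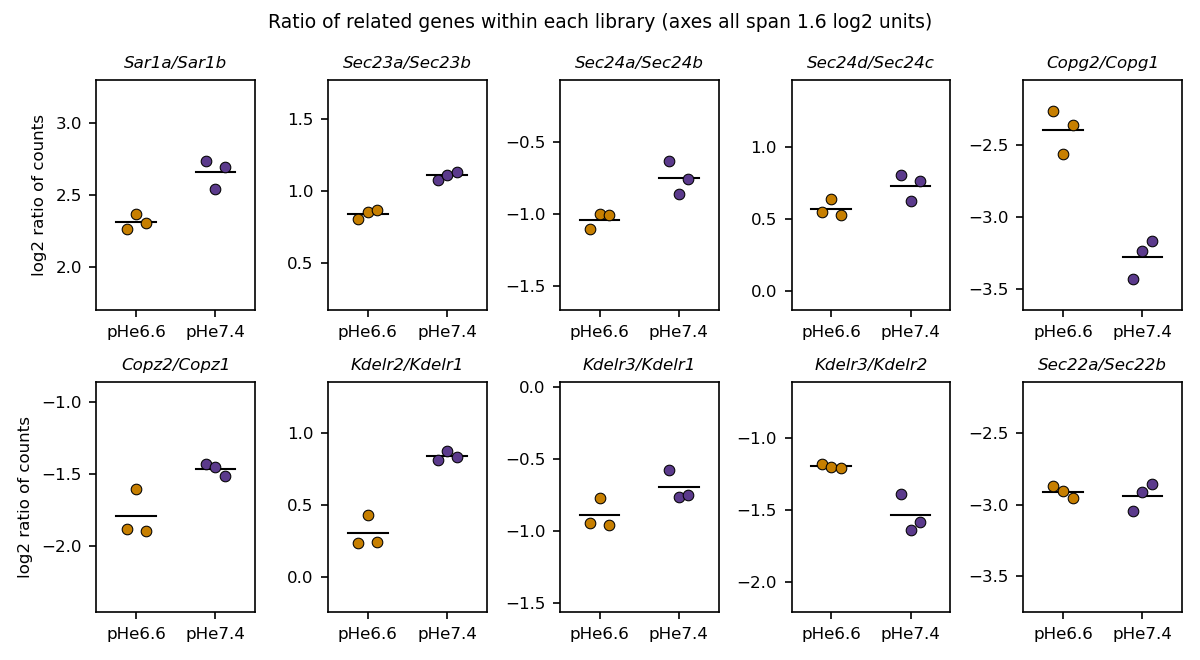
Log2 ratio of the counts of 2 related genes within each library, 1 panel per pair, 3 libraries at pHe6.6 (orange) and 3 at pHe7.4 (purple), with the mean as a line; all axes span the same number of log2 units but are centred differently. Copg2 to Copg1 is higher at pHe6.6 by 0.88, and the groups overlap only for Sec24d to Sec24c and Sec22a to Sec22b.

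Promoters of the members were searched for response elements of the unfolded protein response and of related factors, since the response is known to raise genes of the secretory pathway. RefSeq promoters (GRCm38.p6, 250 bases before to 50 after the start) were matched for 35 of the 40 members; Tmed2, Tmed7, Arcn1, Sec61a1 and Kdelr2 were not matched. Both strands were searched. The core of the unfolded protein response element (TGACGTGG) was found in 5 of the 35 (14.3%), Copb1, Copb2, Sec23a, Sec24d and Kdelr3, beside 0.714% of 27025 genes. Of these 5, Sec23a was lower at pHe6.6 and the other 4 did not pass. The E-box CACGTG was found in Tmed10, Sec62 and Sar1a (8.57%, beside 8.09% of all genes), of which Tmed10 was higher, Sar1a was lower and Sec62 did not pass. The cAMP response element TGACGTCA, which shares its opening letters TGACGT with the core above, was found in Cope alone (2.86%, beside 2.03%). The ER stress elements, CCAAT and CCACG set 9 bases apart and ATTGG and CCACG set 1 base apart, were found in none of the 35. Sites before the start are shown for 3 members with the core and for the 3 with the E-box, because members that share these letters differed in direction or did not pass. Capitals mark the match, and CCACGTCA is the core read on the other strand.
Copb1 (chr7:114254690-114254719, minus strand): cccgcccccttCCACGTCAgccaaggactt
Sec24d (chr3:123267459-123267488, plus strand): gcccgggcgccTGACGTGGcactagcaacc
Kdelr3 (chr15:79516367-79516396, plus strand): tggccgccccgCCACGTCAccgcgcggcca
Tmed10 (chr12:85374718-85374739, minus strand): cagaggcgcgtCACGTGggtgc
Sar1a (chr10:61680267-61680284, plus strand): agggggcggggCACGTGc
Sec62 (chr3:30792833-30792860, plus strand): ttgtgaggtgtCACGTGaggagcggaca
A match is a description of the letters and not a shown binding site.

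Genes of the same route outside the 40 gave a similar share of calls. Of 92 further genes tested, without the matrix cargo, 43 (46.7%) were called, 21 higher and 22 lower, beside 52.3% of all genes. In the Arf1 cycle, which recruits and releases COPI, 1 of 8 was higher and 2 were lower (37.5% called). Arfgap1, a GTPase-activating protein for Arf1, had 71.2, 73.5 and 70.3 CPM at pHe6.6, against 113, 109.7 and 110.0 CPM at pHe7.4, and fell by 0.63 on the log2 scale (SE 0.053, edgeR adjusted p = 8.86e-05). Arf5, an Arf GTPase, fell by 0.27 on the log2 scale (adjusted p = 0.0117) and Arfgap3 rose by 0.22 (adjusted p = 0.0371), calls that were lost without pHe6.6 replicate C for Arf5 (adjusted p = 0.0555), and without any library except pHe7.4 replicate A for Arfgap3 (0.0551 to 0.119) or with upper-quartile factors (0.0524).

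Of 10 cargo receptors and adaptors, 3 were higher and 1 was lower (2 without pHe6.6 replicate A and 0 without pHe6.6 replicate C). The share called was 40%, beside 52.3% of all genes. Mcfd2, which with Lman1 carries coagulation factors, had 415, 394 and 371 CPM at pHe6.6, against 258, 264 and 226 CPM at pHe7.4 (log2 fold change 0.66, SE 0.083, edgeR adjusted p = 0.000515). Ergic3, a membrane protein of the intermediate compartment, had 204, 178 and 181 CPM at pHe6.6, against 123, 135 and 119 CPM at pHe7.4 (log2 fold change 0.57, edgeR adjusted p = 0.000829). Lman1 (ERGIC-53), the lectin partner of Mcfd2, had 477, 482 and 467 CPM at pHe6.6, against 394, 332 and 369.5 CPM at pHe7.4 (log2 fold change 0.38, edgeR adjusted p = 0.00551).

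Of 8 COPII regulators outside the members, 2 were higher and 3 were lower (62.5% called, beside 52.3% of all genes), and the count of higher ones was 0 or 1 whichever library was left out. Tfg, which organises COPII carriers at exit sites, fell by 0.42 on the log2 scale (76.1 to 83.9 CPM at pHe6.6, against 103 to 114 CPM at pHe7.4, edgeR adjusted p = 0.0015), and Sec16b, the shorter relative of Sec16a, by 0.74 (13.3 to 16.1 CPM at pHe6.6, against 19.3 to 30.6 CPM at pHe7.4, adjusted p = 0.00904). Sec31b, the rare relative of Sec31a, was at 1.49 to 2.23 CPM at pHe6.6, against 0.881 to 1.03 CPM at pHe7.4 (log2 fold change 0.85, SE 0.25, edgeR adjusted p = 0.0236), and its call was lost without pHe6.6 replicate A or without any pHe7.4 replicate (adjusted p 0.0547 to 0.0763). Mia2, a relative and partner of Mia3 that was chosen after its values were seen, had 73.1, 72.6 and 74.3 CPM at pHe6.6, against 89.0, 80.3 and 81.6 CPM at pHe7.4, a log2 fold change of -0.19 (adjusted p = 0.0324) that lost its call without any library except pHe7.4 replicate B (0.056 to 0.104) or without a filter on low counts (0.0948).

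Of 21 tethers and fusion factors, 2 were higher and 4 were lower (28.6% called, beside 52.3% of all genes). Ykt6, a SNARE of ER to Golgi and later steps, fell by 0.49 on the log2 scale (112 to 113 CPM at pHe6.6, against 149.6 to 162 CPM at pHe7.4, edgeR adjusted p = 0.000411), and Zw10, a tether of Golgi to ER carriers that also acts at the kinetochore, fell by 0.56 (adjusted p = 0.000969). Gosr1, a SNARE of the Golgi, rose by 0.34 (adjusted p = 0.00249). Of 20 further genes of ER import, 2 were higher and 8 were lower (50% called, near the share of all genes). Ssr1 and Ssr2, subunits of the translocon-associated protein complex, had log2 fold changes of -0.49 and -0.29 (adjusted p = 0.000694 and 0.00462), and Srprb, the beta subunit of the signal recognition particle receptor, had one of -0.45 (adjusted p = 0.00422). The count of lower import genes was 3 without pHe6.6 replicate C and 5 without pHe6.6 replicate A, pHe7.4 replicate A or pHe7.4 replicate C, and that of higher ones was 1 without any pHe6.6 replicate or without pHe7.4 replicate C.

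Of 15 ER chaperones, 9 were higher, beside 26.4% of all genes, and 1, Manf, named after its value was seen, was lower, beside 25.9% of all genes (log2 fold change -0.22, adjusted p = 0.0194, lost if pHe7.4 replicate A or pHe6.6 replicate C is left out), with a median log2 fold change of 0.23. Hyou1, an ER relative of Hsp70, had 523, 532 and 532 CPM at pHe6.6, against 406, 392 and 394 CPM at pHe7.4 (log2 fold change 0.41, edgeR adjusted p = 0.00109). Sdf2l1, a cofactor of the chaperone Hspa5, and Pdia6, a disulphide isomerase, rose by 0.47 and 0.44 (adjusted p = 0.00367 and 0.0042). Hspa5 (BiP), the major chaperone, added after its values were seen, was at 1823 to 1915 CPM at pHe6.6, against 1538 to 1648 CPM at pHe7.4 (log2 fold change 0.22, adjusted p = 0.0418), and lost its call whichever library was left out (0.058 to 0.145), with upper-quartile factors (0.07) and without a filter on low counts (0.0524). Without pHe6.6 replicate A the count of higher chaperones was 5, and without pHe7.4 replicate C it was 4.

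Of 10 transcription factors that act on the secretory pathway, 2 were higher and 3 were lower (50% called, near the 52.3% of all genes). Atf6, the ER stress sensor, had 121, 136 and 128 CPM at pHe6.6, against 87.9, 73.2 and 87.6 CPM at pHe7.4 (log2 fold change 0.63, edgeR adjusted p = 0.000832), and Ddit3 (CHOP) rose by 0.60 (adjusted p = 0.000396). Creb3 fell by 0.48 (adjusted p = 0.00098). Atf6b, a relative of Atf6 that was named after its values were seen, fell by 0.30 (edgeR adjusted p = 0.00799). Creb3l1 (OASIS), which acts on collagen genes in bone of mice and was named after its values were seen, had 87.2, 121 and 95.3 CPM at pHe6.6, against 199, 143 and 173 CPM at pHe7.4 (log2 fold change -0.76, edgeR adjusted p = 0.0065). Xbp1, also named after its values were seen, had 291, 209 and 269 CPM at pHe6.6 and 209, 202.5 and 215 CPM at pHe7.4 and did not pass (log2 fold change 0.29, adjusted p = 0.0693). It passed without a filter on low counts (0.0304), with DESeq2's Wald test (0.0423), with sample weights in limma-voom (0.0205) and once pHe6.6 replicate B was left out (log2 fold change 0.42, adjusted p = 0.00316). Of 7 matrix cargo genes, 1 was higher and 2 were lower (42.9% called, below the share of all genes). Col1a1, a chain of type I procollagen, had 6696, 8800.0 and 6769 CPM at pHe6.6, against 16880, 12050 and 14790 CPM at pHe7.4 (log2 fold change -0.97, edgeR adjusted p = 0.00233), and Fn1, fibronectin, had a log2 fold change of -1.58 (1811 to 2693 CPM at pHe6.6, against 5637 to 6843 CPM at pHe7.4, adjusted p = 0.000293). Sparc, a matrix protein that binds collagen, rose by 0.32 (adjusted p = 0.0287), a call lost without pHe6.6 replicate A or without any pHe7.4 replicate (0.0645 to 0.0983). The 4 that did not pass were the other collagen chains of the list, named after their values were seen. Col1a2 had a log2 fold change of -0.13 and Col3a1 one of -0.0585 (edgeR adjusted p = 0.36 and 0.794). For Col5a1 it was -0.22 and for Col5a2 it was 0.28 (edgeR adjusted p = 0.198 and 0.0686).

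**Figure D4:**
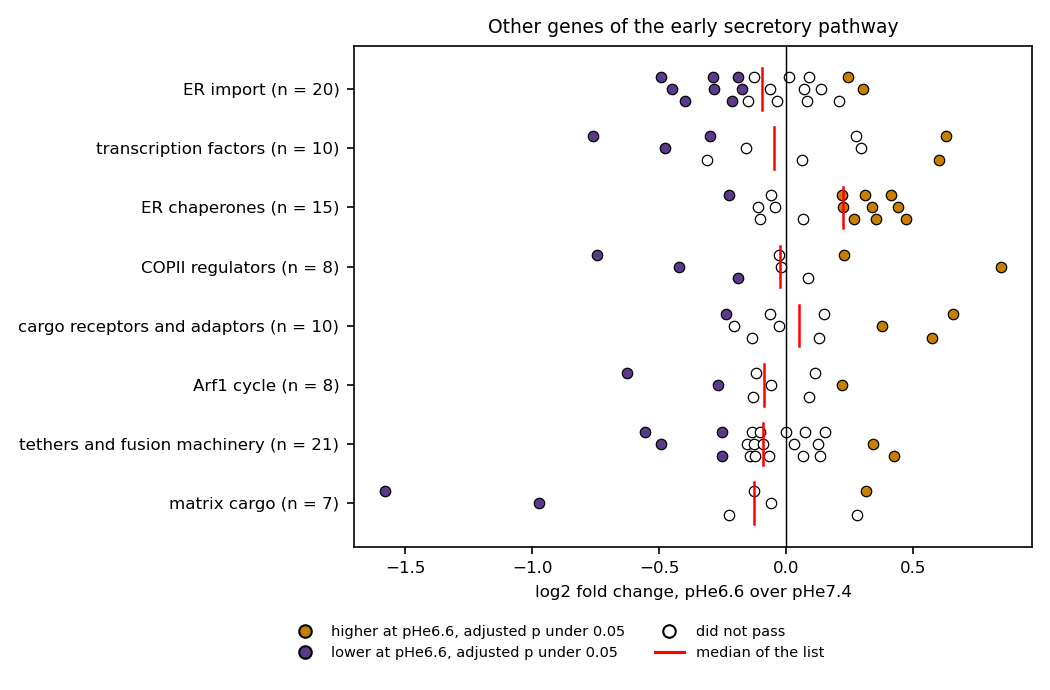
Log2 fold change (pHe6.6 over pHe7.4) of further genes of the early secretory pathway, 1 point per gene in rows by list, with n the genes tested and a red line at the median; filled points passed edgeR's test and open points did not. Of the 15 chaperones 9 are filled on the right, with a median of 0.23, and Fn1 at -1.58 and Col1a1 at -0.97 are the points farthest to the left.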

How the data were processed

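RNA of PSCs was sequenced as single reads from directional, poly(A)-enriched libraries. The authors aligned reads to mm10 with HISAT2 2.2.1 and counted them with featureCounts 2.0.1; the annotation release and strand setting are not given in the sources used here. The deposited table holds raw counts per gene and library. The authors' own table from limma 3.50.1 holds log2 fold changes, mean log2 expression, test statistics and p-values, of which none was used; it served only to match gene names to identifiers.

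The test was edgeR 4.0.16's quasi-likelihood test, run in R 4.3.3 on the 15197 of 49671 genes that reached 0.5 CPM in 2 or more libraries, with TMM factors, robust quasi-likelihood dispersions, no covariate and Benjamini-Hochberg adjustment over all genes tested (threshold 0.05). A second count required a log2 fold change over 0.58 in size. The SE is the size of the log2 fold change over the square root of F. Libraries of 28904761 to 38331877 counts make 1 count worth 0.0261 to 0.0346 CPM. Per the paper, biological replicates are counted as mice; whether libraries of the same letter share a mouse is not given. The p-values of edgeR set the difference between the groups against the spread between these libraries, moderated over genes. Code was tested on simulated data. Ratios of related genes used counts + 0.5. Positions and exons are from GENCODE vM21 on GRCm38, the assembly of mm10, and promoters from RefSeq. Plots were drawn with matplotlib 3.10.9.

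The members and lists were chosen with earlier results of these data known. Values in every library are given for the 3 members of each role with the smallest adjusted p. They are also given for the member of each role with the highest level per exon length. The same holds for both genes of each pair whose ratio did not overlap, and for called members past 0.58. From each other list the 3 genes of smallest adjusted p were named by rule. Mia2, Hspa5, Manf, Creb3l1, Xbp1, Atf6b, Sec61a2, Col1a2, Col3a1, Col5a1 and Col5a2 were added after their values were seen. Alternatives were DESeq2 1.42.0 (size factors or Wald test), upper-quartile factors, other filters, limma-voom (limma 3.58.1) with and without sample weights, a replicate term and leaving out each library.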

Additional observations from a re-analysis of the deposited data

How the results depend on the processing

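Over 14 alternatives per gene, 12 of the 20 called members kept an adjusted p under 0.05 in all, and 8 lost it in at least 1 (Tmed1, Tmed2, Tmed9, Arcn1, Sec23a, Sec61g, Sar1a and Mia3). With upper-quartile factors, which moved the median of all genes to -0.043 (3737 genes higher and 4217 lower, against 4016 and 3939 with TMM), the median of the members was -0.108, 1 member was lower past 0.58, 2 KDEL receptors and 7 tethers were lower, and the counts of higher genes were 0 in the Arf1 cycle, 1 among COPII regulators and 1 in ER import. Without a filter on low counts, 1 COPII gene and 5 import genes were lower, 1 COPII regulator was higher and 2 matrix cargo genes were higher, the last also with DESeq2's test. With sample weights in limma-voom, 5 COPII genes and 2 KDEL receptors were lower. The deviations of libraries with the same letter correlated at -0.063 for A, 0 for B and 0.228 for C. With 3 libraries per group this does not settle whether the letters pair the libraries. With the letter as a block 7408 genes were called, against 7955 without it, 6 members were higher and 12 lower, and 1 COPII regulator and 1 import gene were higher. With the block, adjusted p was 0.0625 for Tmed1, 0.051 for Arcn1, 0.0525 for Sec31b, 0.0568 for Mia2 and 0.0503 for Hspa5. No other gene named changed its side of 0.05, leaving aside Sec61a2, Atf6b and the collagen chains other than Col1a1, for which this is not given. Leaving out each library in turn gave 5 to 7 higher and 7 to 16 lower members, 0 to 1 lower past 0.58 and a median of -0.093 to -0.043. The same gave 0 to 2 lower p24 genes, 1 to 2 higher and 1 to 5 lower COPII genes, 1 to 2 lower KDEL receptors, 0 to 1 higher and 1 to 2 lower genes of the Arf1 cycle, 0 to 2 lower cargo receptors, 0 to 1 higher COPII regulators, 1 to 2 higher and 3 to 7 lower import genes, 4 to 8 higher and 0 to 1 lower chaperones and 0 to 1 higher matrix cargo genes. Signs changed only for members that passed in no fit: Tmed7 (0.006 without a filter or without pHe6.6 replicate A, down to -0.02 with a library left out), Cope (0.042 without pHe7.4 replicate B, 0.033 if pHe6.6 replicate C is left out, down to -0.061), Sec16a (-0.055 without pHe7.4 replicate B, up to 0.141), Sec24b (-0.012 with upper-quartile factors, -0.009 with sample weights and -0.055 without pHe7.4 replicate B, up to 0.061), Preb (-0.005 with upper-quartile factors and -0.011 without pHe6.6 replicate A, up to 0.063), and for the ratio of Sec22a to Sec22b (-0.026 to 0.068 over the left-out libraries). The summed levels were also recomputed under both scalings and without each library, a choice made after seeing the data. Nothing on their stability is drawn from this. For a library left out of a mean of 3 the size of the move is nearly fixed by arithmetic and is no test. The cause of the changes between settings was not tested. Members had 425 counts or more in every library, so that depth limits them little, and the 3 libraries per group set the precision.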

Other observations

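Levels of different members can be compared only per length. By mean CPM per kilobase of merged exons over the 6 libraries, Kdelr2 was the highest (128), followed by Kdelr1 (82.8), Sar1a (72.6), Tmed9 (67.2) and Kdelr3 (63.6), and Sec22a was the lowest (2.67). Merged exons include those of transcripts with retained introns. Per kilobase of the longest transcript, Kdelr2 stayed the highest (128), Copb2 (122) and Copa (121) came next, and Kdelr1 (97.1) was in place 8.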
